A study of Mus musculus with 2 samples.

Results

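T cells are rare but regular residents of fat. They carry the CD3 complex, which passes the signal of the T cell receptor into the cell, and fall into helper cells with the co-receptor CD4, cytotoxic cells with CD8 and regulatory cells that depend on the transcription factor Foxp3. Regulatory T cells of visceral fat are known to differ from those of lymphoid organs by Gata3, the interleukin 33 receptor Il1rl1 (ST2) and Klrg1, and they restrain inflammation there. Group 2 innate lymphoid cells (ILC2) of the same tissue share several of these genes, answer the same cytokine and have no antigen receptor.

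The T cells described here came from single-cell RNA-seq of the stromovascular fraction (SVF) of perigonadal white adipose tissue (gWAT) of male Cyp1a1 fate reporter mice (Cyp1a1Cre x R26LSL-eYFP). Cyp1a1 is switched on by the aryl hydrocarbon receptor (AHR). In these mice Cre made from the Cyp1a1 gene marks a cell and its offspring with eYFP for good, so the sort kept cells with past or present Cyp1a1 activity. Diets with 10% fat (low-fat diet, LFD) and 60% fat (high-fat diet, HFD) were fed for 12 weeks. Both groups were injected with FICZ, an agonist of AHR, at 10 mg/kg and tissue was taken 5 days later. Live (DAPI-) eYFP+ cells gave 1 library per diet, from mice that the study pooled, and no label ties a cell to a mouse, so there was no replicate and no test between diets.

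Members were chosen by their own counts of unique molecular identifiers (UMIs, each standing for 1 captured RNA molecule). A T cell had a UMI of Cd3d, Cd3e or Cd3g and a UMI of Trac, Trbc1, Trbc2, Lat or Lck, had none of the B cell genes Cd79a and Ms4a1 or the macrophage gene C1qa, and had at most 1 of the stromal, mesothelial or endothelial genes Pdgfra, Wt1, Krt19 and Cldn5. This rule took 104 of 10216 filtered LFD cells and 81 of 8537 filtered HFD cells, 185 of 18753 in all. The T cells were shallow, with a median of 2764 UMIs in LFD and 2399 in HFD against 10636 and 13231 over all filtered cells, and gave 415170 and 284644 UMIs in sum. At the edge of the rule, 23 LFD and 20 HFD members had a single Cd3 UMI, while 111 and 118 cells just outside it had a UMI of Trac, Trbc1 or Trbc2 and none of the barred genes but no Cd3 UMI. The libraries shared 27 barcodes, of which none was a T cell in both.

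Genes of other cell types were detected in most members. A UMI of at least 1 of 9 genes of other lineages was found in 56 of 104 LFD and 46 of 81 HFD T cells. The immunoglobulin gene Igkc was found in 65 and 75. The stromal and mesothelial list (8 genes) stood at 12.7% of its level in the other cells in LFD and 12.5% in HFD, and the plasma cell list (7 genes) at 4.63% and 7.65%. In the HFD library 1 cell of 15679 UMIs held 66.3% of the plasma cell UMIs of all T cells and another of 24004 UMIs held 70.0% of the stromal ones. The endothelial list (5 genes) stood at 36.0% and 26.6%, with 58.9% and 67.5% of it from 1 cell, the macrophage list at 9.87% and 13.8%, the B cell list at 24.2% and 27.5% (19 and 17 UMIs), the neutrophil list at 4.58% and 5.51%, and the dendritic cell list at 96.2% and 61.6%, the highest of all, though from only 6 and 3 UMIs in T cells. Mast cell markers were at 0 in both libraries (0 of 4 genes with a UMI). More than 1% of the UMIs came from another type's list in 6 LFD and 2 HFD cells, and the ratios below that leaned most on such cells are given without them too.

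T cells made up 1.02% of LFD cells (exact 95% interval 0.833 to 1.23%) and 0.949% of HFD cells (0.754 to 1.18%), a ratio of 0.932 (0.688 to 1.26) that counting error alone does not separate from 1. Among cells with a UMI of Ptprc (CD45, the pan-leukocyte gene) the shares were 3.58% (88 of 2458) and 2.19% (69 of 3157), a ratio of 0.611 (0.439 to 0.846), over denominators that differ in make-up, since the plasma cell list stood at 16794 CPM in the other LFD cells and 67036 CPM in the other HFD cells. These are shares of sorted eYFP+ cells, not of the tissue. All intervals here cover counting error only. Mice, sorts and libraries cannot be told apart from diet.

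The label held for most but not all members. Among the leading genes that the rule did not use, Foxp3 was 1980 times as high in LFD T cells as in the other LFD cells and 1006 times in HFD, as summed UMIs scaled to a total of 1000000 (CPM). Next came Sh2d1a, an adaptor of lymphocyte signalling, at 1184 and 937 times, and the T cell surface receptors Cd6, at 2825 and 523 times, and Cd5, at 437 and 469 times. The helper co-receptor Cd4 (906 and 319 times), the costimulatory receptor Icos (226 and 298 times), Ms4a4b (408 and 353 times), the granule gene Nkg7 (241 and 145 times), Ubash3a, a brake on receptor signalling (193 and 149 times), and Tnfrsf4, which encodes OX40 (167 and 161 times), completed the 10. These ratios describe cells that were picked for T cell genes and are no test of their identity. All 14 genes of a T cell identity list had UMIs, from Ptprc, which other leukocytes share (88 of 104 LFD and 69 of 81 HFD cells), and the transcription factor Ets1 (68 and 57 cells) to Themis (16 and 12 cells). The list was not particular to T cells. It stood at 2818 and 3401 CPM in T cells and at 1560 and 2447 CPM in ILC2-marked cells, which are defined below and had to hold Ptprc. Skap1 of the list was found in 56 of 70 and 57 of 75 of those, and Icos stood at 174 and 191 CPM there.

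A smaller group went against the label. The type 2 cytokines Il5 and Il13, which ILC2 are known to secrete, had a UMI in 13 LFD and 8 HFD members. None of these cells, in either library, had a UMI of Trac, the constant part of the alpha receptor chain, and none had Cd5, Cd6, Foxp3 or Cd4. They met the rule mainly through Cd3g, which was the only Cd3 gene in 11 of the 13 and 6 of the 8, and through Trbc1 or Trbc2, found in all of them. Gata3 was present in 13 of 13 and 8 of 8, and Il1rl1 in 12 and 7.

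The group grew to 21 LFD and 13 HFD cells once the genes Calca and Hs3st1, both known from ILC2, were added to Il5 and Il13, a list settled after these values were seen. Cd3g had a UMI in 21 of the 21 LFD cells with ILC2 genes and Cd3d in 3, whereas Cd3d was found in 67 of the other 83 T cells. In HFD, Cd3d had a UMI in 4 of 13 cells with ILC2 genes and in 58 of 68 others. Trac was found in 2 of 21 and 1 of 13 cells with ILC2 genes, against 35 of 83 and 27 of 68 others. Cd5 or Cd6 was found in 0 of 21 and 1 of 13, against 43 of 83 and 40 of 68. The cells with ILC2 genes were the deeper ones, with medians of 4773 and 4147 UMIs against 2032 and 2014 for the other T cells.

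Cells outside the rule gave a yardstick. ILC2-marked cells, defined by a UMI of at least 3 of 8 ILC2 genes, of Ptprc and of no Cd3 gene, numbered 70 in LFD and 75 in HFD. Trbc2 had a UMI in 57 of these 70 and 55 of 75, so Trbc2 was common outside the rule too, while Trac was found in 1 of 70 and 1 of 75. The members with ILC2 genes were picked for those genes, so their levels of Il5, at 1066 CPM (LFD) and 493 CPM (HFD), against 921 and 449 CPM in ILC2-marked cells, are a description only. They are named by those genes below, and values without them are given beside a number of results.

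**Figure D1:**
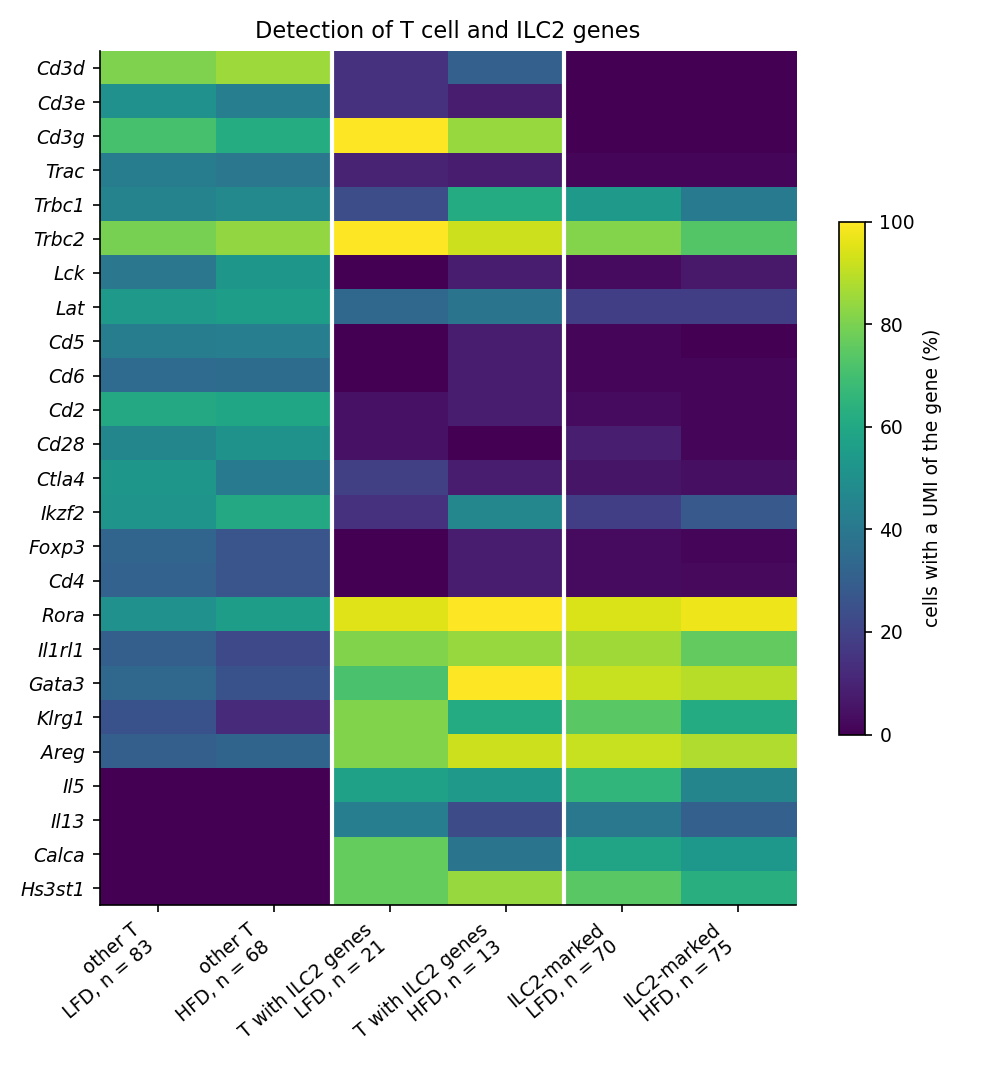
Share of cells with a UMI of each gene (color, %), for T cells without and with ILC2 genes and for ILC2-marked cells without Cd3, in each library. Il5 to Hs3st1 are at 0 in the first pair of columns, and Cd3 genes in the last, by definition. Trac, Lck, Cd5, Cd6, Cd2 and Cd28 are rarer in T cells with ILC2 genes than in the other T cells, and Rora, Il1rl1, Gata3 and Areg more frequent.

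Regulatory cells were the largest named subset in both libraries at full depth. Foxp3 (ENSMUSG00000039521, chromosome X, 7573644 to 7595245 on the plus strand of GRCm38) had a UMI in 27 of 104 LFD T cells (26.0%, 17.9 to 35.5%) and 19 of 81 HFD T cells (23.5%, 14.8 to 34.2%). Its summed level was 125 CPM in LFD and 116 CPM in HFD. Other cells with Cd4 but no Foxp3 made up 17 LFD (16.3%) and 13 HFD cells (16.0%). Cells with Cd8a or Cd8b1 but no Foxp3 numbered 7 (6.73%) and 6 (7.41%), and a further 1 and 2 had Foxp3 as well. A gamma or delta receptor gene, without Foxp3, Cd4, Cd8a or Cd8b1, was found in 7 (6.73%) and 5 (6.17%). The largest part, 46 LFD (44.2%) and 38 HFD cells (46.9%), had none of these genes and stayed unassigned. Alpha and beta receptor genes were not part of the gamma or delta call. Only 5 LFD and 3 HFD T cells lacked Trac, Trbc1 and Trbc2, so some cells of that subset had such a gene too. Tcrg-C1, a gamma chain gene, was also found in 2 of 21 LFD and 1 of 13 HFD cells with ILC2 genes. The intervals of each subset overlapped between diets.

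**Figure D2:**
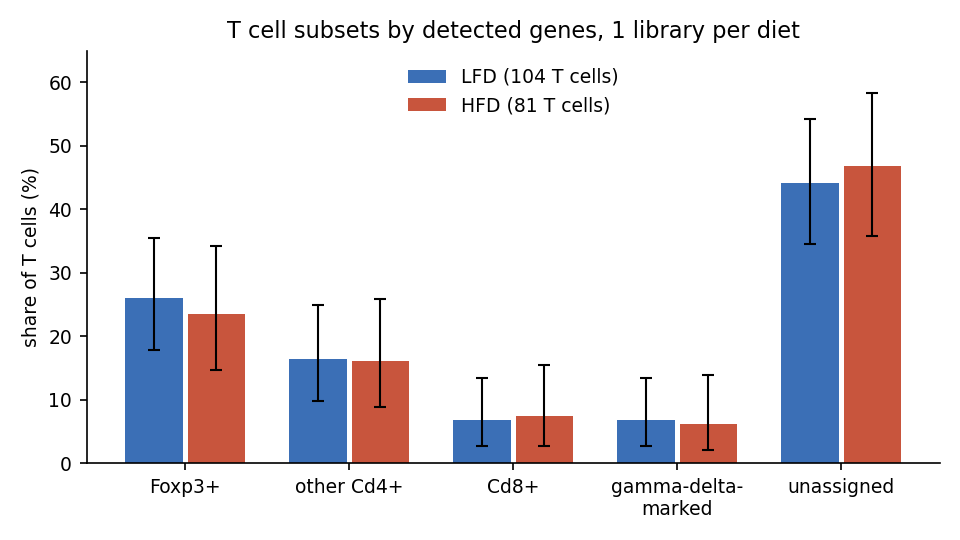
Share of T cells in each subset (%), with exact 95% binomial intervals, in the LFD (104 cells) and HFD (81 cells) library. Foxp3+ cells were 26.0% and 23.5%, and the intervals overlap in every subset.

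Detection limits these shares. With each cell thinned to 1000 UMIs, which left out 6 LFD and 3 HFD cells, Foxp3 was found in 15 of 98 LFD cells (15.3%, 8.83 to 24.0%) and 8 of 78 HFD cells (10.3%, 4.53 to 19.2%). Other Cd4+ cells then numbered 11 in each library (11.2% and 14.1%), so at equal depth Foxp3+ cells were no longer the larger subset in HFD. Foxp3 was found in none of 400 B cells and none of 400 stromal cells of either library thinned in the same way, so free RNA gave no Foxp3 background that could be seen. A further 22 LFD and 16 HFD cells had no Foxp3 UMI but 3 or more of 6 genes that regulatory cells hold (Il2ra, Ikzf2, Ctla4, Tnfrsf18, Tnfrsf4 and Tnfrsf9). Of these, 15 and 12 were left without the cells with ILC2 genes, some of which hold the same genes. The Foxp3+ cells with as many numbered 23 and 18.

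Foxp3+ cells carried several genes known from visceral fat regulatory cells. Gata3, Il1rl1 or Klrg1 had a UMI in 22 of 27 LFD cells and 13 of 19 HFD cells. Ikzf2, which encodes Helios, was found in 21 and 19, the inhibitory receptor Ctla4 in 19 and 11, and Il2ra, the high-affinity interleukin 2 receptor chain, in 16 and 8. Pparg, the nuclear receptor tied to fat regulatory cells, was found in 0 of 27 and 1 of 19, and Il10 in 2 and 1. A count of 0 in 27 cells does not show that Pparg was not expressed at this depth.

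Across the 4714 genes with at least 20 summed UMIs, 98 (2.08%) were at least 2-fold higher in Foxp3+ cells than in the other T cells of both libraries and 239 (5.07%) at least 2-fold lower. These are cells of the same libraries split by 1 gene, so the counts are a description. Of the 10 compared genes of the regulatory list, 6 were among the higher ones (Foxp3 itself by construction), and of the 10 compared of the tissue regulatory list 4 were. Of these 20, 1 was at least 2-fold lower in both libraries, Cxcr6, a chemokine receptor of tissue-resident lymphocytes.

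Ikzf2 stood at 1119 CPM in Foxp3+ and 294 CPM in other LFD T cells, a ratio of 3.80 (2.88 to 5.04), and at 1791 and 509 CPM in HFD, a ratio of 3.52 (2.72 to 4.57). Tnfrsf9, the costimulatory receptor 4-1BB, stood at 698 and 154 CPM in LFD (4.53, 3.12 to 6.66) and at 368 and 79.9 CPM in HFD (4.60, 2.44 to 9.01). Ctla4 and Tnfrsf4 differed by similar factors, 3.22 and 3.97 in LFD and 3.74 and 3.84 in HFD. Without the cells with ILC2 genes these ratios were smaller, at 2.46 (1.86 to 3.29) and 2.61 (1.99 to 3.43) for Ikzf2, 3.27 and 3.02 for Tnfrsf9, 2.21 and 2.57 for Ctla4, and 2.80 and 2.77 for Tnfrsf4, in LFD and HFD. Ccr2, a receptor for monocyte chemokines, stood at 422 and 87.0 CPM in LFD and at 380 and 180 CPM in HFD. Levels of all these genes were above those of the other T cells in both libraries, with and without the cells with ILC2 genes. Leaving those cells out raised the regulatory genes at least 2-fold higher in both libraries from 6 to 8 of 10, and the tissue regulatory ones from 4 to 5 of 10, with Ccr2 falling just short in HFD (1.95, 1.11 to 3.45).

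Some fat regulatory genes stood out only after the cells with ILC2 genes were left out, which removed 1 HFD Foxp3+ cell and no LFD ones. The cells left out are rich in Gata3, Il1rl1 and Areg and nearly all lack a Foxp3 UMI. Leaving them out, a choice made after the values were seen, therefore had to raise these ratios, and the rise is a description only. Gata3 in Foxp3+ cells over other T cells was 1.16 in LFD (0.766 to 1.73) and 0.792 in HFD (0.471 to 1.29) with them, and 3.06 (1.72 to 5.64) and 2.59 (1.30 to 5.28) without. Il1rl1 went from 0.957 and 1.06 to 3.89 (2.17 to 7.28) in LFD and 2.08 (1.07 to 4.10) in HFD. Areg, which encodes the repair factor amphiregulin, went from 0.316 and 0.749 to 1.78 (1.24 to 2.57) and 2.15 (1.48 to 3.14). Klrg1 was higher either way, at 2.07 and 2.63 with them and 3.93 and 5.97 without.

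Some naive and cytotoxic genes stood lower in Foxp3+ cells. Of the 6 compared genes of the naive or recirculating list 2 were at least 2-fold lower in both libraries (Tcf7 and Satb1), and of the 6 compared of the cytotoxic list 3 were lower (Nkg7, Klrd1 and Fcer1g) and 1, Gzma, was higher. Without the cells with ILC2 genes the lower ones numbered 1 (Tcf7) and 4, and Gzma stayed higher. Tcf7, the factor of naive and memory cells, was 17.2 CPM in Foxp3+ and 93.6 CPM in other LFD T cells, and 35.6 and 225 CPM in HFD. Nkg7 was at 0 UMIs in the 27 LFD Foxp3+ cells and at 418 CPM in the others, and at 47.4 and 399 CPM in HFD. Ccl5, a chemokine of effector T cells, was 34.4 and 328 CPM in LFD and 35.6 and 844 CPM in HFD. The granzymes went the other way, with Gzma at 2600 and 532 CPM in LFD and at 462 and 0 CPM in HFD, and Gzmb at 362 and 194 CPM in LFD and 166 and 30.0 CPM in HFD. The stromal gene Col3a1 was also lower, at 422 and 1769 CPM in LFD and 344 and 1323 CPM in HFD, so the amount of stromal RNA moved with this split. The endothelial list moved with it too, up in LFD (1231 and 278 CPM, of which 93.0% in Foxp3+ cells came from 1 cell) and down in HFD (130 and 559 CPM). The macrophage gene Lyz2 had 16 UMIs in LFD Foxp3+ cells, 81.2% of them in 1 cell. Without the cells rich in another type's RNA the stromal list had ratios of 0.841 (0.634 to 1.11) and 1.19 (0.854 to 1.66) and the endothelial list 0.732 (0.320 to 1.53) and 0.748 (0.336 to 1.55), all with intervals that include 1. In the same cells Ikzf2 stood at 3.38 and 3.23, Ctla4 at 2.88 and 3.10, Tcf7 at 0.162 and 0.127, and Ccl5 at 0.0956 and 0.0386, while Ccr2 in HFD was 1.85.

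**Figure D3:**
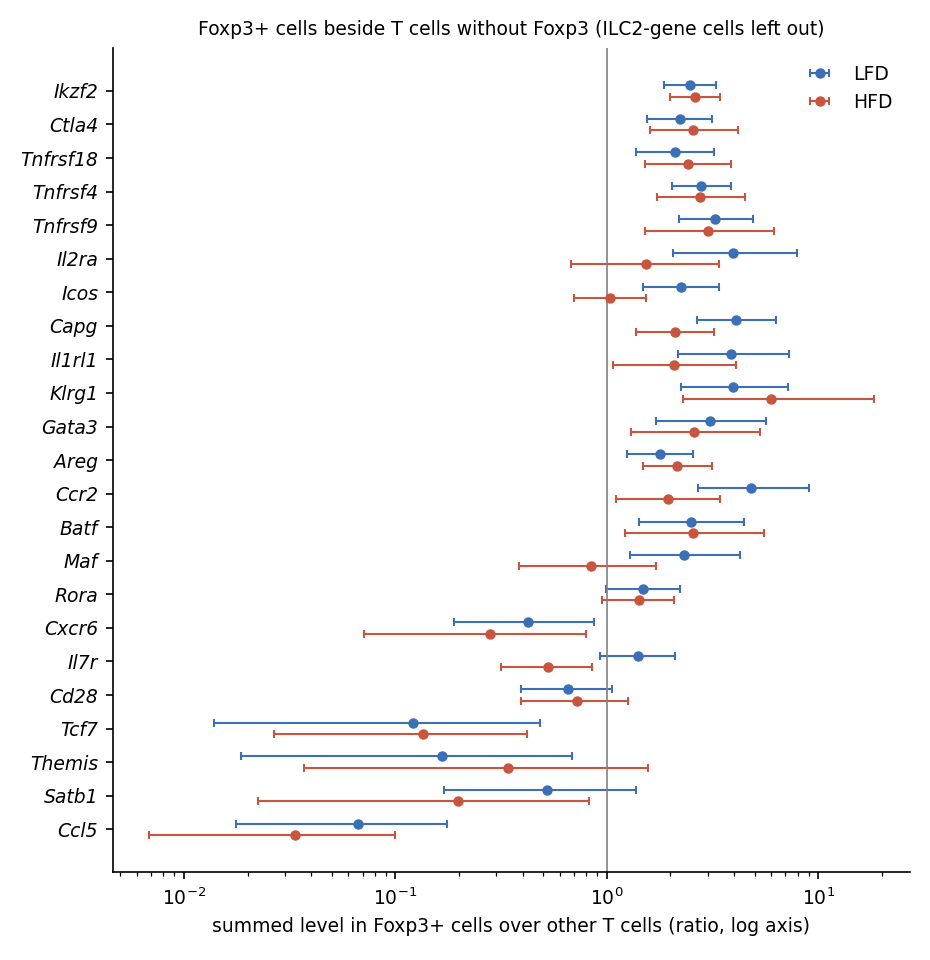
Ratio of the summed level (CPM) in Foxp3+ T cells to that in other T cells, log axis, with exact 95% intervals of counting error, per library and without the cells with ILC2 genes. Ikzf2 to Tnfrsf9, Capg, Il1rl1, Klrg1, Gata3 and Batf lie above 2 in both libraries, and Tcf7 and Ccl5 below 0.2.

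Granzyme A was far lower in the HFD T cells. Gzma (ENSMUSG00000023132, chromosome 13, 113093825 to 113100981 on the minus strand), a protease of cytotoxic granules, had 461 UMIs in 16 LFD cells (1110 CPM) and 39 UMIs in 4 HFD cells (137 CPM), a ratio of HFD to LFD of 0.123 (0.0866 to 0.171). The cells with Gzma were mostly Foxp3+, 9 of 16 in LFD and 4 of 4 in HFD, and only 2 and 0 had Cd8a or Cd8b1. They were deep cells, with medians of 7556 and 8766 UMIs against 2764 and 2399 for all T cells, so depth moved with this call. ILC2-marked cells also had less Gzma in HFD, at 148 and 30.8 CPM (0.208, 0.0950 to 0.408). None of the T cells with Gzma had Ncr1 or Klrb1c, genes of natural killer cells, and none of them had Il5 or Il13. Within Foxp3+ cells the level was 2600 CPM in LFD and 462 CPM in HFD, a ratio of 0.178 (0.124 to 0.249). A single cell held 24.3% of the LFD and 74.4% of the HFD UMIs, so the HFD level rests on 1 cell for the most part. All of the cells with Gzma lay outside those with ILC2 genes, and without the latter the ratio was 0.111 (0.0779 to 0.154). Gzmb had 100 UMIs in 16 LFD and 20 UMIs in 8 HFD cells, a ratio of 0.292 (0.171 to 0.475), while Nkg7 was at 301 and 295 CPM (0.980, 0.734 to 1.30). Prf1, the pore-forming perforin, had 3 UMIs in LFD and 1 in HFD, too few to compare.

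Ccl5 (chromosome 11, 83525778 to 83530518, minus strand) went the other way, with 102 UMIs in 18 LFD cells (246 CPM) and 172 UMIs in 21 HFD cells (604 CPM), a ratio of 2.46 (1.91 to 3.17). In the cells with Cd4 and no Foxp3 it had 8 UMIs in 2 of 17 LFD cells (120 CPM) and 51 UMIs in 4 of 13 HFD cells (1624 CPM). In Cd8+ cells Ccl5 had 440 CPM for LFD, from 1 of 7 cells, and 1509 CPM for HFD, from 4 of 6 cells. The deepest LFD Cd8+ cell gave 51.3% of the UMIs of that subset. The HFD Cd8+ cells include the cell rich in plasma cell RNA, which gave 59.1% of their UMIs, and without it Ccl5 stood at 1754 CPM in the other 5 cells. Among T cells with none of 9 genes of other lineages it was 0.897 times its LFD level, so the direction turned with that choice of cells.

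**Figure D4:**
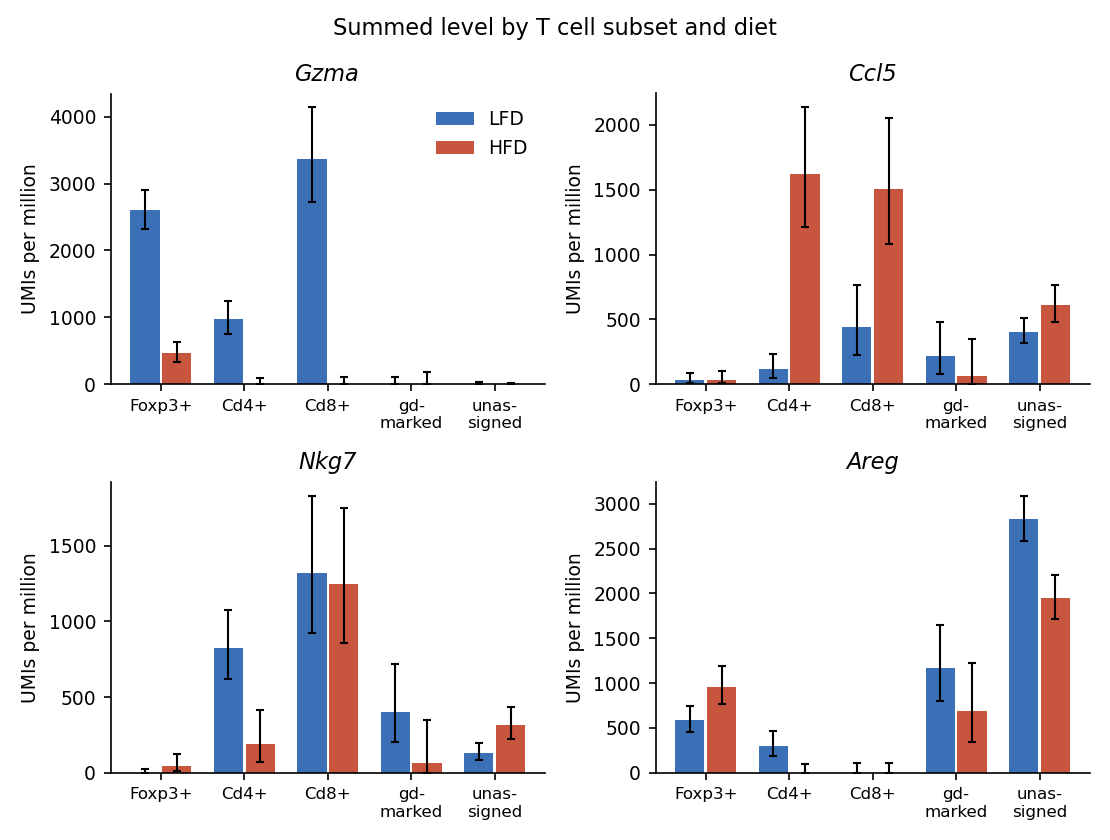
Summed level (CPM) of Gzma, Ccl5, Nkg7 and Areg in each T cell subset and library, with exact 95% Poisson intervals. LFD Gzma lies in Foxp3+, other Cd4+ and Cd8+ cells, where the Cd8+ bar is 1 cell, and HFD Gzma in Foxp3+ cells at 462 CPM. The HFD Cd8+ bars include a cell rich in plasma cell RNA that gave 59.1% of their UMIs. Ccl5 is low in Foxp3+ cells of both diets (34.4 and 35.6 CPM).

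Between diets 266 of the 4714 genes (5.64%) were at least 2-fold higher in HFD T cells and 230 (4.88%) at least 2-fold lower, with a median ratio of 1.01. Of the 118 compared genes among the 217 listed, 10 were at least 2-fold higher and 10 at least 2-fold lower. With 1 library per diet these shares describe a pair of libraries, and shares of the listed genes near the background carry no further meaning. Of the 10 higher, 4 were immunoglobulin and plasma cell genes (Jchain, Mzb1, Ighm and Igkc). The plasma cell list was also higher in the other cells of the HFD library, and 1 HFD cell held 97.3% of the Mzb1 UMIs in T cells. Without the cells rich in another type's RNA the ratios were 2.72 (1.24 to 6.28) for Jchain, 3.54 (2.82 to 4.48) for Igkc and 1.87 (0.402 to 9.41) for Mzb1. Over all genes the intervals of 409 (8.68%) lay above 1 and those of 360 (7.64%) below.

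Nr4a1 and Tnfaip3 of the activation and residency list were among the other listed genes that stood higher in HFD. Nr4a1, an immediate response gene of receptor signalling, had a level of 219 CPM (LFD) and 509 CPM (HFD), a ratio of 2.32 (1.78 to 3.06). Most of its UMIs lay in the cells with ILC2 genes (54 of 91 in LFD and 95 of 145 in HFD), and without them the ratio was 1.77 (1.14 to 2.79), below 2-fold. In ILC2-marked cells, which have no Cd3 UMI, Nr4a1 stood at 444 and 1390 CPM (3.13, 2.64 to 3.74). Tnfaip3 (A20), a brake on NF-kappaB, stood at 294 and 629 CPM (2.14, 1.69 to 2.72), and was also higher within Foxp3+ cells, at 181 and 451 CPM (2.49, 1.43 to 4.47). Of the 8 compared genes of the activation and residency list, these 2 passed 2-fold higher and none lower, with a list median of 1.37. The immediate early list went in both directions, with Egr1 at 173 and 66.8 CPM (0.385, 0.219 to 0.645) but Junb at 1710 and 2262 CPM (1.32, 1.19 to 1.47). Among T cells with no gene of another lineage the ratio of Egr1 was 1.16, so its direction turned with that choice. Tissue digestion is known to induce immediate early genes, and its part in the difference was not tested.

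Genes of T cell identity and helper polarisation gave a mixed picture. None of the 14 identity genes passed 2-fold in either direction. Bcl11b, a factor of T cell commitment, stood at 135 and 221 CPM (1.64, 1.13 to 2.40, and 1.43, 0.936 to 2.18, without the cells with ILC2 genes), and Cd5 at 154 and 249 CPM (1.62, 1.14 to 2.31), while the median of the list was 1.23. Tcf7 stood at 72.3 and 169 CPM, a ratio of 2.33 (1.45 to 3.82), while Lef1, its relative, had a ratio of 1.34 (0.728 to 2.46). In the type 1 list, Stat4, the signal transducer of interleukin 12, stood at 41.0 and 119 CPM (2.92, 1.59 to 5.57). Tbx21 and Ifng, the defining type 1 genes, had 5 and 7 UMIs in LFD and 1 and 3 in HFD, below the minimum for comparison. The 4 compared interferon-stimulated genes stayed within 2-fold, with a median of 0.814. Of 4 compared secreted factors only the chemokine Ccl4 passed, with 7 and 17 UMIs (3.54, 1.40 to 10.1), and its ratio was 0.640 without cells rich in another type's RNA. Of the type 17 list, Il17a and Il22 had no UMI in any T cell of either library. The 1 gene of that list that could be compared, the interleukin 1 receptor Il1r1, had 23 UMIs in 8 LFD cells and 6 in 5 HFD cells (0.381, 0.127 to 0.961), but 1.07 without the cells rich in another type's RNA.

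Regulatory genes differed in both directions. Ikzf2 had a level of 525 CPM (LFD) and 889 CPM (HFD) over all T cells (1.69, 1.41 to 2.04), and within Foxp3+ cells at a ratio of 1.60 (1.26 to 2.04). Tnfrsf9 stood at 306 and 165 CPM (0.540, 0.378 to 0.760) and Tnfrsf4 at 453 and 313 CPM (0.691, 0.530 to 0.893). Both were also lower within HFD Foxp3+ cells, at ratios of 0.527 (0.337 to 0.806) and 0.664 (0.473 to 0.924). Klrg1 stood at 243 and 141 CPM (0.578, 0.390 to 0.841), with UMIs in 38 LFD and 16 HFD cells. Foxp3 and Ctla4 had ratios of 0.926 (0.580 to 1.46) and 0.861 (0.651 to 1.13), whose intervals include 1. None of the 10 compared regulatory genes and none of the 10 compared tissue regulatory genes passed 2-fold, but without the cells with ILC2 genes Tnfrsf9 did, at 0.426 (0.289 to 0.616).

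Some genes known from ILC2 were among the listed genes with the lowest HFD to LFD ratios. Of the 6 compared genes of the ILC2 list itself, 1 was at least 2-fold lower (Calca), 2 had intervals below 1 and 1, Il2rb, had its interval above 1 (1.89). Over all genes these shares were 4.88%, 7.64% and 8.68%. Il13 had 61 UMIs in 9 LFD cells and 4 in 3 HFD cells (0.0956, 0.0253 to 0.258). Il5 had 124 UMIs in 12 and 28 in 7 (0.329, 0.210 to 0.500), and Calca, which encodes a neuropeptide, 128 in 16 and 23 in 5 (0.262, 0.160 to 0.411). By the definition of the split, all of these UMIs lay in the cells with ILC2 genes. In ILC2-marked cells outside the rule, Il5 stood at 921 and 449 CPM and Il13 at 699 and 381 CPM, lower in HFD as well, whereas Calca stood at 713 and 667 CPM, a ratio of 0.935 (0.782 to 1.12) whose interval includes 1. No T cell with Cd4 had a UMI of Il5 or Il13 in either library.

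**Figure D5:**
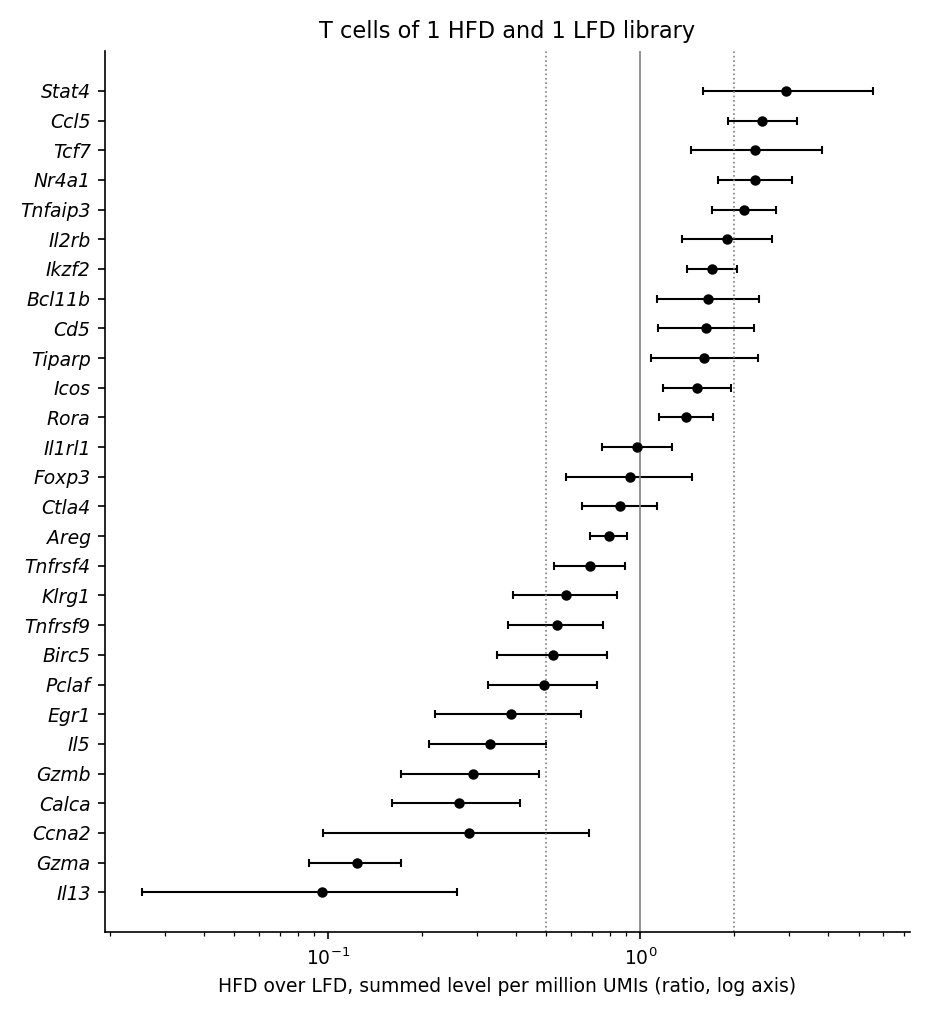
HFD over LFD ratio of the summed level (CPM) of listed genes in T cells, log axis, with exact 95% intervals of counting error. The dotted lines mark 2-fold. Stat4 (2.92) and Ccl5 (2.46) lie highest and Il13 (0.0956) and Gzma (0.123) lowest of the genes shown.

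Cell cycle genes leaned lower in HFD T cells. Of the 12 compared, 10 had ratios below 1 and 5 had intervals below 1, against 48.6% and 7.64% of all genes, and 1 had its interval above 1. At least 2-fold lower were 2 of the 12 (Pclaf and Ccna2), against 4.88% of all genes, and none was 2-fold higher. The median was 0.626. Without the cells with ILC2 genes 4 of 12 were at least 2-fold lower and 1 (Cenpa, 2.01) higher, with a median of 0.593. Over all genes these shares were then 5.38% and 5.66%. Pclaf, a partner of the replication clamp, stood at 250 and 123 CPM (0.491, 0.325 to 0.726) and Birc5 (survivin) at 234 and 123 CPM (0.526, 0.347 to 0.782), whereas Cenpa, a histone of the centromere, stood at 137 and 253 CPM (1.84, 1.28 to 2.66). At least 4 of the 12 genes were found in 22 LFD and 11 HFD cells, with medians of 8430 and 7194 UMIs, well above those of all T cells, so depth moved with the call. Of these cells 8 and 7 were Foxp3+. Within Foxp3+ cells the summed list stood at 2471 CPM (LFD) and 3012 CPM (HFD), with 6 of 9 compared genes above a ratio of 1, 3 of them by their interval, against 49.7% and 6.27% of the 1612 genes compared in these cells. In T cells without Foxp3, 11 of 12 lay below 1 and 8 were at least 2-fold lower, against 48.4% and 7.38% of the 3700 genes compared there. The difference between these groups was not tested. In Foxp3+ cells alone, Stmn1, a tubulin regulator of dividing cells, had a level of 430.5 CPM (LFD) and 723 CPM (HFD) (1.68, 1.14 to 2.49), against 0.926 (0.725 to 1.18) over all T cells.

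Among genes with UMIs in at least 10 HFD T cells the lower bounds farthest above 1 were those of the immunoglobulin genes Jchain (12.0), Igkc (7.44) and Iglc1 (4.37), and Mzb1, found in only 6 HFD cells, had a lower bound of 22.6. With immunoglobulin, mitochondrial and ribosomal protein genes and genes far higher in other cells left out, the first 10 of them were Ccl5 and the 9 that follow. Hsp90b1 and Hspa5, chaperones of the endoplasmic reticulum that antibody-secreting cells hold in quantity, had ratios of 4.06 and 2.48, but 80.4% and 67.8% of their HFD UMIs came from 1 cell. Without the cells rich in another type's RNA, the ratios were 0.939 and 1.02 (0.768 to 1.36). Slc15a2, a peptide transporter, had 3 UMIs in 3 LFD cells and 20 in 12 HFD cells (9.72, 2.88 to 51.1). Faah, which breaks down endocannabinoids, had 10 UMIs in 10 and 30 in 24 cells (4.38, 2.08 to 10.0). Rictor, a subunit of mTORC2, had 6 in 6 and 23 in 18 (5.59, 2.21 to 16.8), and Arhgap4 4 in 4 and 18 in 16 (6.56, 2.16 to 26.7). Dusp5, a phosphatase of ERK, had 21 in 19 and 50 in 31 (3.47, 2.05 to 6.09). Vps37b, an ESCRT subunit, stood at 214 and 569 CPM (2.66, 2.04 to 3.48) and the actin binder Pfn1 at 111 and 309 CPM (2.79, 1.93 to 4.08). Without the cells with ILC2 genes the ratio of Slc15a2 was 6.12 (1.71 to 33.2). Several of these genes were also higher in HFD outside the T cells. In ILC2-marked cells the ratio was 2.51 (1.96 to 3.24) for Vps37b, 2.34 (1.49 to 3.72) for Dusp5 and 3.13 (1.99 to 5.05) for Pfn1. It was 8.38 (1.90 to 76.5) for Arhgap4, 3.54 (1.05 to 15.3) for Slc15a2, 2.23 (1.01 to 5.18) for Faah and 1.93 (0.881 to 4.40) for Rictor, all from few UMIs. Over all other cells it was 2.95 for Slc15a2, 2.67 for Faah, 2.53 for Pfn1, 1.58 for Dusp5, 1.44 for Vps37b, 1.19 for Rictor and 1.03 for Arhgap4.

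At the low end, beside Gzma, Gzmb, Calca and Il5, stood Ly6a (Sca-1), at 971 CPM in 68 LFD cells and 404 CPM in 41 HFD cells (0.416, 0.335 to 0.513). Without the cells with ILC2 genes its ratio was 0.507 (0.381 to 0.667), just short of 2-fold. ILC2-marked cells had a similar ratio, with levels of 2149 and 1002 CPM (0.466, 0.410 to 0.530), while B cells had 1049 and 998 CPM and all other cells together a ratio of 1.64. Ranbp1, a partner of the nuclear transport protein Ran, stood at 383 and 148 CPM (0.385, 0.267 to 0.544), and Gusb, a lysosomal enzyme, at 69.9 and 10.5 CPM (0.151, 0.0294 to 0.487). Cyp11a1, the first enzyme of steroid synthesis, had 74 UMIs in 14 LFD cells and 6 in 4 HFD cells (0.118, 0.0421 to 0.270), all of them in cells with ILC2 genes, and stood at 539 and 188 CPM in ILC2-marked cells. Palld, an actin scaffold, had 26 UMIs in 10 and 3 in 3 cells (0.168, 0.0326 to 0.549). Mt1, a metal-binding metallothionein, had a ratio of 0.287 (0.196 to 0.410), but 75.0% of its LFD UMIs came from 1 cell. Among T cells with no gene of another lineage its ratio was 2.74, so the direction turned with the choice of cells.

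Cyp1a1 and Ahr were found in few T cells, although each cell was sorted for a record of Cyp1a1 activity. At least 1 of Ahrr, Cyp1a1, Cyp1b1 and Tiparp had a UMI in 45 of 104 LFD (43.3%) and 38 of 81 HFD cells (46.9%), and the 7 genes of the AHR pathway list together stood at 284 and 411 CPM, above B cells (155 and 136 CPM) and below stromal cells (1066 and 1360 CPM). Cyp1a1 (chromosome 9, 57687928 to 57703824, plus strand) had 15 UMIs in 10 LFD T cells (36.1 CPM) and 5 UMIs in 5 HFD T cells (17.6 CPM), a ratio of 0.486 (0.138 to 1.41), or 0.303 without the cells with ILC2 genes. Of the LFD UMIs, 5 lay in 2 cells with much RNA of another type, and of the HFD UMIs, 2 lay in cells with ILC2 genes. Thinned to 1000 UMIs per cell, Cyp1a1 was found in 2.04% of LFD and 2.56% of HFD T cells, against 1.75% and 0.500% of B cells and 1.00% and 2.00% of stromal cells. The B and stromal cells were sorted for the same record, so their shares are no measure of free RNA, and at this depth the T cell share could not be told apart from theirs. Ahr itself had 12 UMIs in 12 LFD cells and 10 in 10 HFD cells.

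Of the 7 AHR pathway genes 4 could be compared, with a median ratio of 1.21. Tiparp, a target gene that feeds back on AHR, stood at 125 CPM in 30 LFD cells and 200 CPM in 27 HFD cells (1.60, 1.08 to 2.38). In T cells with ILC2 genes Tiparp stood at 129 and 405 CPM, and in the other T cells at 124 and 149 CPM. ILC2-marked cells had 131 and 440 CPM of Tiparp. Ahrr, the AHR repressor, had 2 UMIs in 2 LFD cells and 9 in 8 HFD cells (6.56, 1.36 to 62.4), under the minimum of 20. Cyp1b1 stood at 67.4 and 80.8 CPM in T cells, below its 742 and 890 CPM in stromal cells, and 35.7% and 60.9% of its UMIs came from 1 cell.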

How the data were processed

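The deposited matrices held UMI counts per gene and barcode that the authors made from 10x 3' v3 libraries. The submitters' processing notes list bcl2fastq 2.17.1.14, Cell Ranger 4.0.0, STAR, Seurat 4.1.0 and mm10. Positions are GENCODE M21 lookups (GRCm38). Barcodes with 500 to 40000 UMIs, at least 100 genes and under 12.5% mitochondrial UMIs were kept. No doublet caller was run, and only the rule's barred genes limit doublets. Counts were summed over T cells per library and divided by their total (CPM). The exact 95% intervals were Poisson (levels), conditional binomial (ratios) and Clopper-Pearson (shares). Only the ratio interval was run on simulated data, with counts drawn independently per gene. That draw follows the interval's own model and leaves out the clustering of UMIs in single cells, so it does not test the intervals against such clustering. Genes needed 20 summed UMIs. No test between diets was possible with 1 library each. Named were the listed genes, 10 with the highest and 10 with the lowest ratio by the interval bound nearest 1 (at least 10 cells), and 10 leading genes. The members and lists were chosen with earlier results of these data known. Python 3.11.15, numpy 2.4.6 and scipy 1.17.1 were used.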

Additional observations from a re-analysis of the deposited data

Results flagged for a closer look

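Areg stood out because its diets differed in opposite directions in a pair of cell groups. Its HFD to LFD ratio was 0.791 (0.691 to 0.905) in T cells and 1.43 (1.33 to 1.54) in ILC2-marked cells, so that the first was 0.553 times the second. The difference between the groups was not tested, since each diet had 1 library. Within T cells, Areg had a ratio of 1.64 (1.17 to 2.30) in Foxp3+ cells and 1.23 (0.951 to 1.59) once the cells with ILC2 genes were left out. Those cells had 4255 CPM in LFD and 3837 CPM in HFD and made up 28.0% and 19.96% of the T cell UMIs, so their smaller share in HFD entered the pooled ratio. Over all T cells the ratio ran from 0.563 with 2 or more Cd3 UMIs to 2.51 under 5% mitochondrial UMIs, so its direction turned with the choice of cells.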

How the results depend on the processing

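The share of T cells fell to 0.793% (LFD) and 0.715% (HFD) with 2 or more Cd3 UMIs and to 0.470% and 0.410% with no gene of another lineage. It was 0.813% in LFD without cells with ILC2 genes, 1.26% in LFD under 5% mitochondrial UMIs, and 3.58% and 2.19% of Ptprc+ cells. The Foxp3+ share was 15.3% and 10.3% thinned to 1000 UMIs, 8.51% in HFD thinned to 2000 UMIs, 11.4% in HFD with no gene of another lineage and 39.4% in LFD under 5% mitochondrial UMIs. The other Cd4+ share was 7.81% in LFD thinned to 2000 UMIs. Genes 2-fold higher and lower numbered 138 and 142 with no gene of another lineage (6.84% and 7.03% of 2019 compared), 65 and 65 with 50 summed UMIs (3.02% each of 2152) and 648 and 589 with 10 (9.27% and 8.43% of 6987). Lower genes numbered 120 with at most 3 times the median UMIs (3.55%) and 374 by the mean of per-cell CPM (7.93%), and higher genes 161 under 5% mitochondrial UMIs (9.71% of 1658). Listed genes 2-fold lower numbered 17 with no gene of another lineage.

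Directions turned for Ccl5 (0.897), Mt1 (2.74) and Egr1 (1.16) with no gene of another lineage, for Mt1 (1.23) and Il1r1 (2.19) with 2 Cd3 UMIs, and for Mt1 (1.38) under 5% mitochondrial UMIs. They turned for Hsp90b1 (0.989), Hspa5 (0.776) and Il1r1 (1.01) with at most 3 times the median UMIs, and for Hsp90b1 (0.939), Il1r1 (1.07) and Ccl4 (0.640) without cells rich in another type's RNA. Leaving out those cells, or the cells with ILC2 genes, was chosen after seeing the data. The cause of these changes was not tested. Gzma was at most 0.126 under every alternative run. No paired analysis was possible because each diet had 1 library.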
